A study of Mus musculus with 18 samples.

Results

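IL-7 was compared with media control in recently activated CD8+ T cells of OT-I mice, on 6 of the study's 18 arrays. The 3 arrays of cells given IL-7 and the 3 of cells given no cytokine were chosen by the treatment named in the sample labels. The cells came from male mice of the strain labelled OT-I TCR Tg, whose CD8+ T cells carry a transgenic receptor for an ovalbumin peptide. Naive cells isolated from spleen were primed for 48 hours with irradiated, peptide-loaded whole splenocytes of wild-type C57BL/6 mice, and viable cells were then enriched on a density gradient. They were cultured for another 24 hours in complete RPMI alone (media control) or in the same medium with recombinant murine IL-7 at 100 ng/ml. The transgene, the priming and the medium were common to all 6 cultures, and ages and the number of mice per replicate are not given in the sources used here. RNA of replicates 1 and 2 was extracted with RNeasy and that of replicate 3 with TRIzol and Direct-zol.

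IL-7 is a cytokine of stromal cells that keeps naive and memory T cells alive. It binds a receptor made of the IL-7 receptor alpha chain and the common gamma chain, which the receptors of IL-2, IL-4, IL-15 and IL-21 share. The JAK1 and JAK3 kinases on these chains phosphorylate STAT5, which enters the nucleus and activates survival genes such as Bcl2 and feedback inhibitors of the SOCS family, while the same receptor feeds the PI3K and AKT pathway of growth and glucose use.

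Levels are log2 values per gene, put on 1 scale by quantile normalization of the 18 arrays, and differences are IL-7 minus media control on that log2 scale, with their standard error (SE). A gene was called higher or lower where its adjusted p was under 0.05 in a limma fit that kept the replicate number as a block. Background was set at 6.995, the level under which 95% of 37 genes specific to tissues other than T cells had their mean, and a difference from or to a level under it has no exact size. As deposited, the replicate 3 arrays in 3 groups (media control, IL-2 and IL-15) lay lower over the whole array, with medians of 4.47 to 4.52 against 5.76 to 5.84 in the other 15 arrays, and why is not stated. All 10 markers of CD8 T cells lay above background in both groups, with a mean level of 12.24 to 12.48 in the media control arrays and of 11.96 to 12.18 in the IL-7 arrays. The number of arrays limits the precision of every value below.

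IL-7 moved the transcripts of many genes by a small amount and those of a few by a large one. Of 18219 genes, 1519 were higher with IL-7 (8.34%) and 1459 were lower (8.01%), and 15241 did not pass the test. The median rise among the called genes was 0.55 and the median fall was -0.51, while the median over all genes was -0.02. A rise of at least 1 was seen in 153 called genes and a fall of at least 1 in 123, and at 2 or more these counts were 13 and 6. Among called genes, 1516 rose and 1455 fell in all 3 replicate pairs, and in 965 and 980 of them the 3 IL-7 arrays lay wholly above or below the 3 media control arrays. Over all genes tested, called or not, the arrays did not overlap in 1654 genes that were higher (9.08%) and 1847 that were lower (10.1%). Higher genes made up 51.0% of the calls, 64.9% when arrays were only centred on their medians and 98.8% on the values as deposited, and without the replicate block 171 genes were higher and 136 lower. The counts depended on single arrays, and were 677 higher and 639 lower without IL-7 replicate 2, 852 and 815 without media control replicate 3, 967 and 917 without IL-7 replicate 1, and 1023 and 866 without media control replicate 2.

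**Figure D1:**
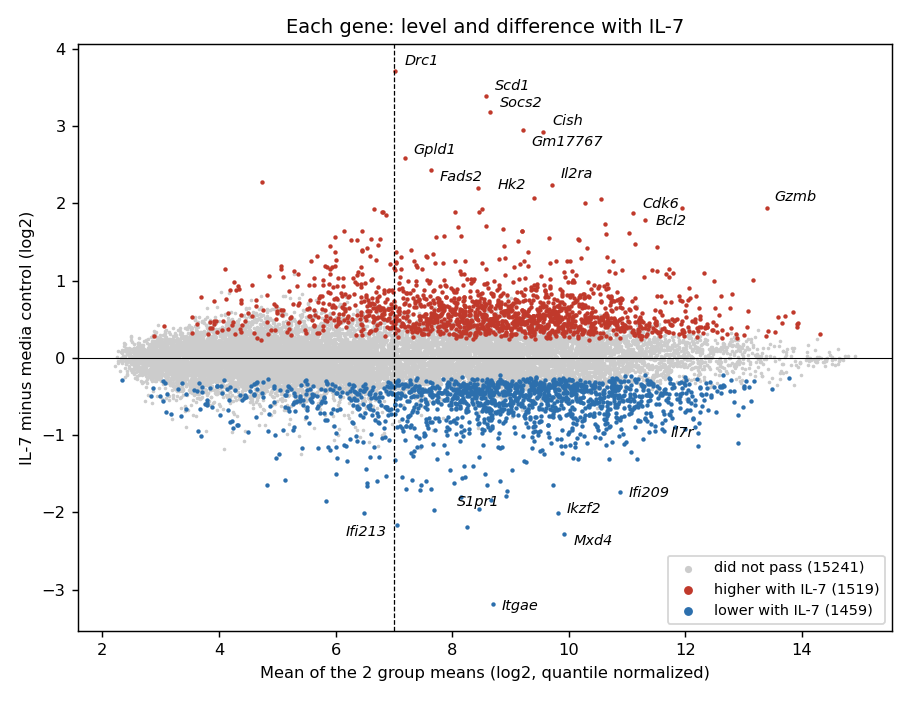
Difference between IL-7 and media control (vertical axis, log2) against the mean of the 2 group means (horizontal axis, log2) for 18219 genes, 1 point per gene. Red and blue points are the 1519 genes higher and the 1459 lower with IL-7, grey points did not pass, and the dashed line is the background level of 6.995, with Drc1 at 3.72 the highest point and Itgae at -3.19 the lowest.

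Transcripts of both receptor chains and of Jak1 were lower with IL-7. Il7r, which encodes the IL-7 receptor alpha chain, lay at 11.71, 12.31 and 12.02 in replicates 1, 2 and 3 of media control and at 11.20, 11.43 and 10.88 with IL-7. The 3 IL-7 arrays were below the 3 control arrays, and the difference of -0.84 (SE 0.20) had an adjusted p of 0.0102, which rose to 0.0626 without media control replicate 3 and to 0.062 without IL-7 replicate 2. Il2rg, the common gamma chain, lay at 12.48, 13.00 and 13.05 in media control and at 11.99, 12.59 and 12.85 with IL-7. It was lower in each of the 3 pairs although the groups overlapped, by -0.37 (SE 0.10, adjusted p = 0.0233), a call lost without any one of media control replicates 1 and 2 and IL-7 replicates 1 and 2, where adjusted p ran from 0.056 to 0.11. Jak1, the kinase bound to the alpha chain, fell from 12.35, 12.43 and 11.92 to 11.66, 11.73 and 11.35, a difference of -0.65 (SE 0.12, adjusted p = 0.00307) with no overlap. Calls for Il7r, Il2rg and Jak1 were lost without the block, without replicate 1 of every group and without replicate 2. Adjusted p for Jak1 was then 0.312, 0.104 and 0.0559.

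The chains of the related receptors did not move as 1 group. Of 9 receptor chains of the gamma chain family, Il2ra was higher and Il7r, Il2rg and Crlf2, which encodes a receptor chain that pairs with the IL-7 receptor alpha chain to bind TSLP, were lower (Crlf2 -0.63, SE 0.12, adjusted p = 0.00279), while 5 did not pass. Il2ra, the alpha chain that gives the IL-2 receptor its high affinity (CD25), lay at 8.69, 8.26 and 8.82 in media control and at 10.76, 10.73 and 11.00 with IL-7. Every IL-7 array stood above every control array, with a difference of 2.24 (SE 0.19, adjusted p = 4.3e-05). The beta chain gene Il2rb, shared by the receptors of IL-2 and IL-15, differed by 0.21 (SE 0.11) and did not pass (adjusted p = 0.208). Among 18 JAK, STAT and regulator genes Jak1 and Jak2 were lower and 16 did not pass, with a median of -0.20. The share lower was 11.1%, beside 8.01% over all genes. The count was 0 without replicate 1 of every group, 1 without replicate 2 and 1 without the block. Jak2, a kinase of other cytokine receptors, differed by -0.81 (SE 0.13, adjusted p = 0.00128). The difference was 0.24 for Jak3 (adjusted p = 0.169), -0.10 for Stat5a (adjusted p = 0.679) and -0.26 for Stat5b (adjusted p = 0.18), none of which passed.

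**Figure D2:**
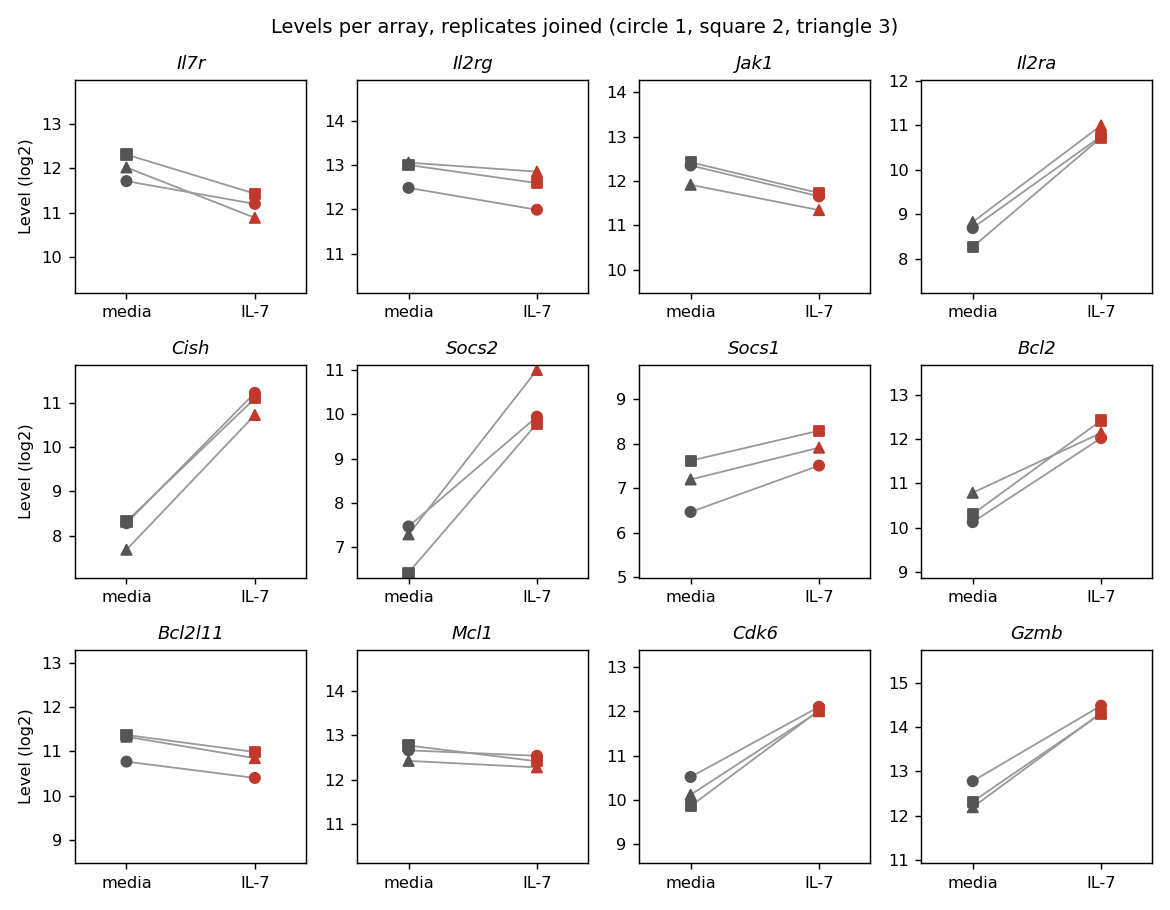
Level (vertical axis, log2) of 12 genes in each media control array (grey) and each IL-7 array (red), with lines joining arrays of the same replicate number (circle 1, square 2, triangle 3) and all axes spanning the same range of log2 units. Il2ra, Cish, Socs2, Bcl2, Cdk6 and Gzmb rose in each of the 3 pairs with no overlap of the groups, while Il7r and Jak1 fell.

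Feedback inhibitors of cytokine signalling and other STAT5 targets rose by up to 9.07-fold. Cish, an inhibitor that STAT5 induces, lay at 8.28, 8.32 and 7.68 in media control and at 11.22, 11.10 and 10.72 with IL-7. Socs2, another member of this family, rose from 7.47, 6.43 and 7.29 to 9.95, 9.79 and 11.00. The groups were far apart in both genes, by 2.92 for Cish (SE 0.27, 7.56-fold, adjusted p = 8.3e-05) and 3.18 for Socs2 (SE 0.38, 9.07-fold, adjusted p = 0.000381). Socs1, an inhibitor of JAK kinases, differed by 0.81 (SE 0.16, adjusted p = 0.00364) and Socs3 by 0.56 (SE 0.14, adjusted p = 0.0131), each higher in all 3 pairs with overlapping groups. The call for Socs3 was lost without media control replicate 3 (adjusted p = 0.0696), and 1 of its other probe sets differed by 0.27 without passing. In all, 5 of 8 SOCS family genes were higher and none was lower, with a median of 0.50, and 3 were higher without media control replicate 3. That count was 2 without replicate 1 of every group, without replicate 2, without the block and on the values as deposited.

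Of 31 STAT5 targets, 20 were higher and 1 was lower, with a median of 0.87 against -0.02 over all genes, and 9 were higher without replicate 1, 13 without replicate 2 and 10 without the block. The kinase genes Pim1 and Pim2, which promote survival and growth, differed by 1.52 and 1.04, and Myc, the growth factor of transcription, by 0.89. Cdk6, a kinase of the G1 phase, lay at 10.52, 9.86 and 10.11 in media control and at a mean of 12.04 ± 0.05 (SD, n = 3) with IL-7, with no overlap and a difference of 1.87 (SE 0.23, adjusted p = 0.000408). Id2, a transcriptional regulator of effector cells, differed by 0.98 and Il10ra, a chain of the IL-10 receptor, by 0.87 from a mean under background. The 1 lower member was Dusp6, a phosphatase that inactivates ERK, at -0.63. Members that did not pass included Ccnd2, a G1 cyclin, at 0.05, and Prf1, which encodes perforin, at 0.10.

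The promoters of the STAT5 targets Cish, Il2ra and Bcl2 are shown because STAT5 binds the letters TTCNNNGAA, which read the same on both strands. No promoter window was given for Socs2, so its promoter is not shown. Sequences are from RefSeq, build GRCm38.p6, 5′ to 3′ on the gene's strand, from 250 bases before to 30 after the start of the gene, with capitals for the motif.
Cish, chr9:107296409-107296688, plus strand: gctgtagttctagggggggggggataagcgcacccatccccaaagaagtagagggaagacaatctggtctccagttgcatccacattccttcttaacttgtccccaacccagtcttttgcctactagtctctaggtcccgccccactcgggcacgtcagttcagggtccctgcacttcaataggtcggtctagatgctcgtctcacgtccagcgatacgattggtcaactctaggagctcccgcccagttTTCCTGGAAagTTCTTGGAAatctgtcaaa
Il2ra, chr2:11642542-11642821, plus strand: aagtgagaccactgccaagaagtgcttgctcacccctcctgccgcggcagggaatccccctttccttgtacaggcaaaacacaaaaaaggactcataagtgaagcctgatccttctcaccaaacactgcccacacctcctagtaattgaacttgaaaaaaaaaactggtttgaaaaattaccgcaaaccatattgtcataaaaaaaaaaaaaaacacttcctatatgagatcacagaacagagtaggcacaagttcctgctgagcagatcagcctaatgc
Bcl2, chr1:106714261-106714540, minus strand: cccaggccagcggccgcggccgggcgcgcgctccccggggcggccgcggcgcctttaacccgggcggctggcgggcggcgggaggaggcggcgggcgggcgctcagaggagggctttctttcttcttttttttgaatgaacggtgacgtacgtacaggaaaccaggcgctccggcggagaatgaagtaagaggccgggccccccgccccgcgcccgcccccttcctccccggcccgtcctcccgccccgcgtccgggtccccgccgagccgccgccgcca
The Cish window held 2 matches, starting 0 and 11 bases past the start of the gene, and the Il2ra and Bcl2 windows held 0 matches, which says only that these letters are not in this window. Searched to 50 bases after the start, 7 of 26 STAT5 targets with a window had a match (Cish, Gzmb, Il18r1, Lta, Ltb, Socs3 and Tnfrsf1b), of which 4 were called higher. A match was found in 8.57% of 14466 genes with a window, in 8.13% of the genes higher with IL-7 and in 8.75% of those lower, so that it was about as frequent in either direction as overall.

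Among the regulators of survival, Bcl2 had the largest change and 4 others passed. Bcl2, which blocks the mitochondrial path to cell death, lay at 10.13, 10.31 and 10.79 in media control and at 12.02, 12.42 and 12.14 with IL-7. The groups did not overlap and the difference of 1.79 (SE 0.25, adjusted p = 0.000816) was a 3.45-fold rise. Bcl2l1, which encodes the related protein BCL-XL, differed by 0.65 (SE 0.17, adjusted p = 0.0184), a call lost without any one of media control replicates 1 and 2 and IL-7 replicates 1 and 2 (adjusted p from 0.0659 to 0.0794). These were the 2 of 5 pro-survival genes that were higher. Mcl1, also pro-survival, lay at 12.66, 12.77 and 12.42 in media control and at 12.54, 12.41 and 12.27 with IL-7. It differed by -0.21 (SE 0.10, adjusted p = 0.165) at the probe set with the highest level, while 4 of its other probe sets were lower by -0.65 to -0.85 and passed.

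Of 11 pro-death members, 1 was higher and 2 were lower, with a median of -0.05. These shares were 9.09% and 18.2%, beside 8.34% and 8.01% over all genes. Bmf and Bbc3 (PUMA), which bind and block pro-survival members, differed by -0.91 (SE 0.28, adjusted p = 0.0364) and -0.59 (SE 0.15, adjusted p = 0.0152), and Bak1, which opens the mitochondrial membrane, by 0.32 (SE 0.09, adjusted p = 0.0197). The call for Bmf was lost without any one of the 6 arrays (adjusted p from 0.0502 to 0.162). That for Bbc3 was lost without media control replicate 2 or IL-7 replicate 1 or 3 (0.0535 to 0.0696), and that for Bak1 without media control replicate 2 or 3 or IL-7 replicate 2 or 3 (0.0584 to 0.0902). Bcl2l11, which encodes BIM, lay at 10.77, 11.37 and 11.33 in media control and at 10.40, 10.99 and 10.85 with IL-7. It was lower in all 3 pairs, by -0.41 (SE 0.16), and did not pass (adjusted p = 0.0974).

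Some of the largest rises were in genes outside these groups. Drc1, a gene of ciliary dynein regulation, lay at 4.89, 4.62 and 5.98 in media control, all under background, and at 8.54, 9.23 and 8.86 with IL-7. Its difference of 3.72 (SE 0.57, adjusted p = 0.00117) was the largest among the called genes, from a level that has no exact size. Gm17767, a gene with no established role, rose from 7.60, 8.21 and 7.37 to 10.61, 10.73 and 10.71, by 2.95 (SE 0.25, adjusted p = 4.3e-05). Gpld1, a phospholipase that releases proteins from their membrane anchor, differed by 2.59 (SE 0.33) and also started under background. Prelid2, of a family of mitochondrial lipid carriers, differed by 2.01 (SE 0.23, adjusted p = 0.000293).

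Many genes of lipid synthesis were higher, among them 10 of 20 for fatty acids and 18 of 23 for cholesterol. Scd1, which desaturates fatty acids, lay at 7.03, 6.48 and 7.14 in media control and at 9.98, 10.71 and 10.12 with IL-7. The 3 IL-7 arrays stood well above the controls, whose mean was under background, by 3.39 (SE 0.43, adjusted p = 0.000493), a size that is not exact. Fads2, a desaturase of polyunsaturated fatty acids, differed by 2.43 (SE 0.34, adjusted p = 0.000788), from under background in 2 of 3 control arrays. Of the 20 genes of fatty acid synthesis 10 were higher, none was lower and the median was 0.42, and 3 were higher without replicate 1, 6 without replicate 2 and 5 without the block. Acsl3, which activates fatty acids, differed by 1.25 from a mean under background, Scd2 by 0.80, Fasn, the fatty acid synthase, by 0.70, and Srebf1, a transcription factor of lipid genes, by 0.50.

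Of 23 genes of the cholesterol synthesis list, 18 were higher and none was lower, with a median of 0.82. Lss, which closes the sterol rings, lay at 8.54, 7.98 and 8.60 in media control and at 9.92, 9.94 and 9.78 with IL-7, a difference of 1.51 (SE 0.27, adjusted p = 0.00245). Fdps, which makes farnesyl pyrophosphate, rose from 10.63, 10.15 and 10.38 to 11.89, 12.14 and 11.57, by 1.48 (SE 0.22, adjusted p = 0.00102). No array of 1 group reached the other in either gene. Msmo1 and Sqle, enzymes of the later steps, differed by 1.42 (SE 0.24) and 1.29 (SE 0.22). Hmgcs1, an early enzyme, differed by 1.09, Insig1, which restrains the pathway, by 0.92, and Srebf2, its main transcription factor, by 0.41. The 5 that did not pass ran from 0.05 for Ebp to 0.50 for Pmvk. When each of the 6 arrays was left out in turn, 14 to 18 members were higher, but 3 were without replicate 1 of every group, 12 without replicate 2 and 12 without the replicate block. The promoter of Hmgcs1 is shown for its match to TCACNCCAC on either strand, a form of the sterol element, in capitals, which was searched for after the values were seen.
Hmgcs1, chr13:119690101-119690380, plus strand: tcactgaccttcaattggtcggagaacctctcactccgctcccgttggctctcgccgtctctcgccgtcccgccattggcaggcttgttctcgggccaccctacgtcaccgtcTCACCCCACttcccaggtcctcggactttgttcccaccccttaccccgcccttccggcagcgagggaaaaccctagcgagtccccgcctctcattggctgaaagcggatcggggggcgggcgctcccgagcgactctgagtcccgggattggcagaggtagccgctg
It was the 1 of 18 members with a window to hold these letters, beside 1.47% of all 14466 genes.

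Transcripts of glucose uptake and glycolysis, from transporter to lactate export, were higher in 16 of 18 cases. Hk2, the hexokinase that traps glucose in the cell, lay at 8.72, 8.54 and 7.83 in media control and at 10.59, 10.86 and 9.84 with IL-7. Slc2a1, the glucose transporter GLUT1, rose from 10.72, 10.45 and 9.52 to 12.06, 12.13 and 11.34. Replicate 3 was lowest in either group of both genes and the groups did not overlap, with differences of 2.06 for Hk2 (SE 0.23, adjusted p = 0.000272) and 1.61 for Slc2a1 (SE 0.16, adjusted p = 0.000106). None of the 18 was lower, and the median was 0.70. Slc16a3, which exports lactate, differed by 1.56 (SE 0.23, from just under background), the aldolase gene Aldoc by 1.54 (SE 0.19), the phosphofructokinase genes Pfkl and Pfkp by 1.25 and 1.15, and Ldha, a lactate dehydrogenase, by 0.60. Hk1, at 0.20, and Pfkm, at 0.50, did not pass. Gapdh and Pgk1, often used as controls, were among the members called higher (0.31 and 0.44), and of 13 housekeeping genes 5 were higher, with a median of 0.11, a count that fell to 1 without IL-7 replicate 2, to 2 without media control replicate 2 or 3, and to 3 without IL-7 replicate 1 or 3.

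Genes known to respond to low oxygen had the highest median of all lists, 1.09, with 16 of 21 members higher and none lower. Ak4, a mitochondrial adenylate kinase, differed by 2.20 (SE 0.24, adjusted p = 0.000245). Egln3, an oxygen-sensing prolyl hydroxylase, lay at 9.74, 9.79 and 9.07 in media control and at 11.70, 12.02 and 11.04 with IL-7. Bnip3, which marks mitochondria for removal, rose from 11.47, 11.54 and 9.91 to 13.06, 13.27 and 12.41. In both genes the lowest IL-7 array was above the highest control array, and the differences were 2.05 for Egln3 (SE 0.24, adjusted p = 0.000321) and 1.94 for Bnip3 (SE 0.25, adjusted p = 0.000525). P4ha2, a collagen prolyl hydroxylase, differed by 1.93 (SE 0.31) and Vegfa, a growth factor of blood vessels, by 1.53, both from means under background. Ndrg1 differed by 1.64 and Ero1a, an oxidase of the endoplasmic reticulum, by 1.61. Hif1a, which is outside the list and encodes the factor that drives this response, differed by -0.28 and Epas1, that of its relative, by 0.25, and neither passed. The oxygen level of the cultures is not given in the sources used here. With each of the 6 arrays left out in turn, 14 to 16 members of either list were higher. Without replicate 1, replicate 2 or the replicate block the counts were 10, 8 and 6 for the hypoxia list and 9, 7 and 6 for glycolysis.

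Hypoxia-inducible factors bind the core letters ACGTG, searched for on both strands after the values were seen, and the promoters of Bnip3 and Egln3 are shown with these letters in capitals.
Bnip3, chr7:138909477-138909756, minus strand: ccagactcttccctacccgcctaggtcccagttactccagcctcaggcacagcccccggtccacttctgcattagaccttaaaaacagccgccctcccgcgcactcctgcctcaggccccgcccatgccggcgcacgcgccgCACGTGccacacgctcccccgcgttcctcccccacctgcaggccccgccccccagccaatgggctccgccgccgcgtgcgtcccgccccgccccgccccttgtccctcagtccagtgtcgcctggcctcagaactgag
Egln3, chr12:54203845-54204124, minus strand: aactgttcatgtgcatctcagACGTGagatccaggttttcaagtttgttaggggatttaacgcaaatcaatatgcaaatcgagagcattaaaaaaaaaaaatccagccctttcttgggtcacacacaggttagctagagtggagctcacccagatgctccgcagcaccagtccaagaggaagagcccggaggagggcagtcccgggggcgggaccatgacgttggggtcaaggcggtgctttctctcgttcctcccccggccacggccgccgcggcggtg
Bnip3 held 2 overlapping matches, since the run reads the same on both strands, and Egln3 held 1. The core was in 15 of 18 hypoxia genes and in 13 of 17 glycolysis genes with a window, and in 26.1% of all 14466 genes. It was in 36.5% of the genes higher with IL-7 and in 27.4% of those lower. A match is no evidence of binding, and genes with several start sites had several windows.

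**Figure D3:**
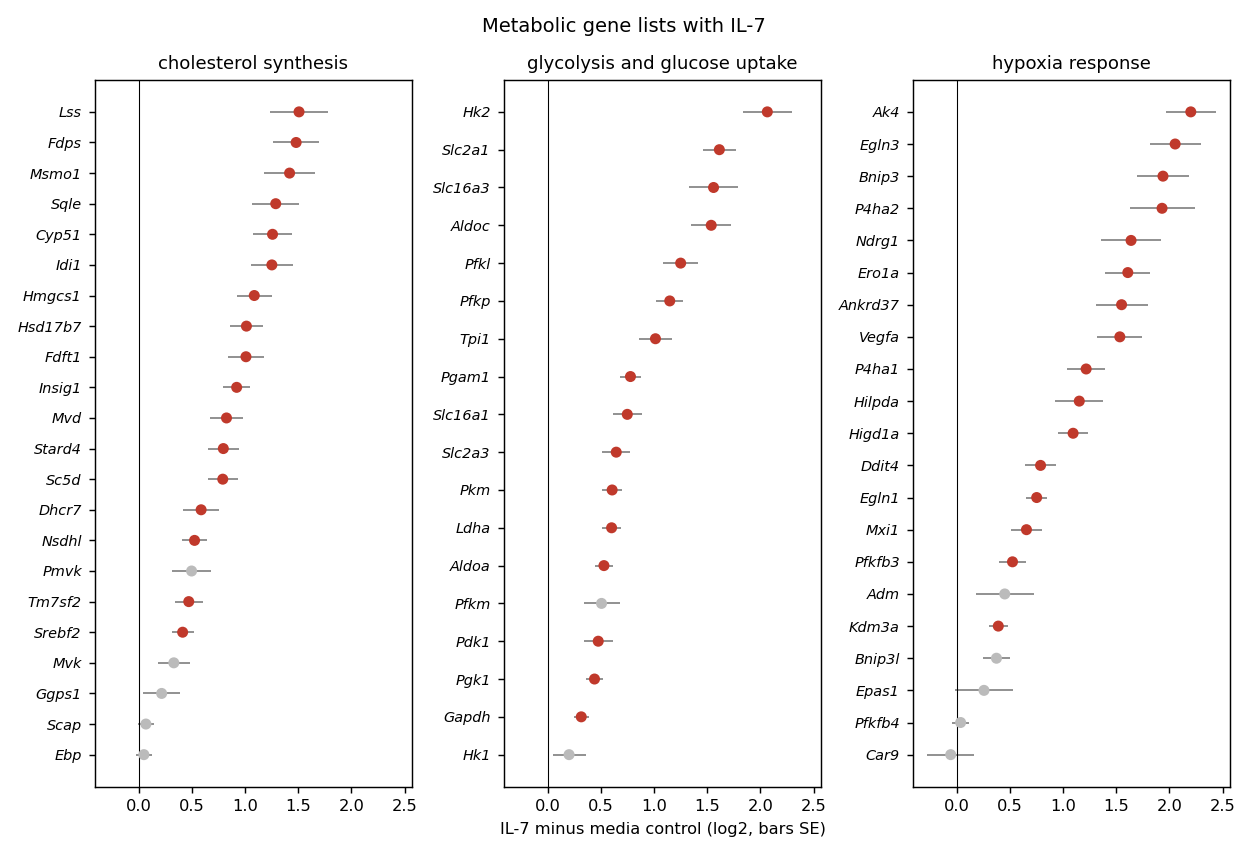
Difference between IL-7 and media control (horizontal axis, log2) for the members of the lists of cholesterol synthesis (1 called member not drawn), glycolysis and hypoxia response, with bars for the SE of the fit. Red members passed the test (18 of 23, 16 of 18 and 16 of 21) and grey ones did not, and no member was called lower.

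Amino acid and transporter genes were called higher more often than lower, and growth signalling genes lower more often than higher. In these lists, calls in the rarer direction were about as frequent as over all genes. Of 31 amino acid synthesis genes and ATF4 targets 15 were higher and 2 were lower, with a median of 0.50. These shares were 48.4% and 6.45%, beside 8.34% and 8.01% over all genes. Asns, the asparagine synthetase, lay at 8.82, 7.49 and 7.38 in media control and at 9.90, 8.91 and 8.56 with IL-7, higher in all 3 pairs with overlapping groups, by 1.23 (SE 0.30, adjusted p = 0.0123). Slc7a5, a transporter of large amino acids, differed by 1.23 (SE 0.21, adjusted p = 0.00184) with no overlap, while Atf4 itself differed by 0.58. Cth and Pycr1, of cysteine and proline synthesis, differed by 1.09 and 1.18 at levels under background. The 2 lower members, Ddit3 and Sesn2, differed by -0.58 and -0.64. Calls for Asns, Cth and Pycr1 were lost without media control replicate 2, IL-7 replicate 1 or IL-7 replicate 2, those for Asns and Cth also without media control replicate 3 and that for Cth also without IL-7 replicate 3. Adjusted p then ran from 0.0506 to 0.0663 for Asns, from 0.0797 to 0.198 for Cth and from 0.082 to 0.159 for Pycr1. The number of members higher was 8 without IL-7 replicate 1 or 2 and 9 without media control replicate 2. Without replicate 1 of every group none was higher in limma (16 at an unadjusted p under 0.05), without replicate 2 there were 4 (17), and without the block 1 (11).

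Of 20 nutrient transporters 9 were higher and 2 were lower. Without replicate 1 of every group, replicate 2 or the block, 3, 4 and 2 were higher and 0, 1 and 0 lower. Tfrc, which takes up iron, differed by 0.83 and Slc39a8, a zinc transporter, by 0.87 from under background, while Slc43a1, another amino acid transporter, fell from 9.06, 9.43 and 8.34 to 7.65, 7.71 and 6.79. That fall was -1.56 (SE 0.24, adjusted p = 0.00133) with no overlap. Of 21 genes of PI3K, FOXO and growth signalling 2 were higher and 5 were lower, with a median of -0.19. These shares were 9.52% and 23.8%, beside 8.34% and 8.01% over all genes. Eif4ebp1, a brake on translation that mTOR inactivates, differed by 1.25 (SE 0.17, adjusted p = 0.000702), and Ddit4, an inhibitor of mTOR, by 0.79. Pik3ip1, an inhibitor of PI3K, lay at 9.77, 11.21 and 10.68 in media control and at 8.54, 9.37 and 8.82 with IL-7, by -1.64 (SE 0.20, adjusted p = 0.000408), and every IL-7 array was below the control arrays. The FOXO target Sesn3, which restrains mTOR, differed by -1.30 (SE 0.19) and Foxo1 by -0.47. The 5 lower members were 3 without media control replicate 2 or 3 or IL-7 replicate 2 or 3.

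Among 30 genes of ribosome biogenesis 17 were higher and 1 was lower, with a median of 0.43. Rrp1b, a nucleolar protein, differed by 0.91 (SE 0.13, adjusted p = 0.00102), Gnl3 (nucleostemin) by 0.81 (SE 0.19), Nop56 by 0.80 (SE 0.19) and Nop16 by 0.74 (SE 0.14), and Wdr12 was the lower member at -0.48. This count depended on single arrays, with 5 members higher without IL-7 replicate 2, 6 without media control replicate 3 and 9 without IL-7 replicate 1. Without IL-7 replicate 2 or media control replicate 3, the calls for Gnl3 (adjusted p = 0.0503 and 0.0527) and Nop56 (0.0609 and 0.0637) were lost. Of 36 genes of DNA replication and cell cycle, 17 were higher and 1 was lower, with a median of 0.43, the lower one being the cyclin gene Ccnd1 at -0.43, and 9 were higher without media control replicate 2 or without IL-7 replicate 2. Without replicate 1, replicate 2 or the block, limma called 2, 1 and 0 ribosome biogenesis genes higher (17, 20 and 9 at an unadjusted p under 0.05) and 2, 1 and 2 cell cycle genes (20, 16 and 14). Beside Cdk6 the largest cell cycle rises were those of Ccne2, a cyclin of S phase entry, at 1.26 (SE 0.22), and of Cdc6, which licenses replication origins, at 1.05 (SE 0.20, adjusted p = 0.00395). Of the Mcm helicase genes, Mcm2 to Mcm6 and Mcm10 were higher by 0.42 to 0.72, and Mcm7, at 0.24, did not pass. Genes of mitosis such as Ccnb2 (-0.11), Cdc20 (-0.07) and Mki67 (0.06) did not pass, while Aurkb (0.53) and Bub1 (0.45) did. Ccnd3, a G1 cyclin, differed by 0.90 at its brightest probe set and by -1.31 at another, and both passed.

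Transcripts of other cell types were also lower with IL-7, as were some markers of CD8 T cells. Of the 10 CD8 T cell markers 4 were lower and none was higher, with mean differences of -0.29, -0.31 and -0.29 in pairs 1, 2 and 3. In the same pairs the mean differences were -0.35, -0.33 and -0.44 for B cell markers and -0.62, -1.65 and -0.42 for myeloid markers. Of 10 markers of myeloid cells, Lyz2, Csf1r, Cd68, Fcgr3 and Mpeg1 were lower and none was higher. Their mean level was 6.22, 7.48 and 5.50 in media control replicates 1, 2 and 3 and 5.60, 5.83 and 5.08 with IL-7, with media control replicate 2 the highest array, and 3 were lower without it or without IL-7 replicate 2. Lyz2, lysozyme of macrophages, lay at 8.81, 11.54 and 7.67 in media control and at 6.76, 8.32 and 6.37 with IL-7, a difference of -2.19 (SE 0.39, adjusted p = 0.00249). Of the 9 B cell markers Cd79a, Cd79b and Ms4a1 were lower, of the 7 dendritic cell markers Itgax, and of the 6 NK cell markers Tyrobp and Fcer1g, and no marker of the 4 for CD4 T cells or the 3 for red cells passed. Media control replicate 2 was also the highest array for Tyrobp (8.42) and Fcer1g (8.78). The other NK cell markers, Ncr1 (-0.07), Klrb1c (-0.03), Klre1 (-0.25) and Eomes (-0.04), did not pass. Summed over the list, the levels ran from 55.0 to 74.8 in media control and from 50.8 to 58.3 with IL-7 for myeloid cells, and from 56.4 to 58.6 and from 53.4 to 54.6 for B cells. Of the markers called lower, Cd79a and Ms4a1 were under background in all 6 arrays. Itgax and Fcgr3 were under it in all but media control replicate 2, Csf1r in all but media control replicate 3, and Tyrobp in all but media control replicates 1 and 2. By mean level, 2 of the B cell, 3 of the myeloid, 2 of the NK cell, 1 of the CD4 and 0 of the dendritic and red cell markers lay above background. The B cell marker Ighm was far above it, at 12.81, 12.54 and 12.54 in media control and at 12.37, 12.04 and 12.43 with IL-7, and did not pass (-0.35, adjusted p = 0.0679), and Cd79b was above it in all arrays but IL-7 replicate 1. Eomes of the NK cell list, which effector T cells also express, was above background in all 6 arrays. Pax5 of B cells, Itgam and Adgre1 of myeloid cells and Ncr1 of NK cells were under background in all 6 arrays, and Cd4 in 5 of them. In bulk RNA, fewer cells of a type and less RNA per cell cannot be told apart, and the part of other cells in the falls given next was not tested. On the values as deposited, the actin probe sets of the 3′ and 5′ ends, which part as RNA degrades, differed by 0.26, 0.27 and 0.61 in media control and by 0.25, 0.22 and 0.37 with IL-7. Those of Gapdh differed by 0.115, 0.002 and -0.048 in media control and by 0.056, 0.053 and -0.007 with IL-7, so that replicate 3 was not raised there.

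The class II genes H2-Aa and Cd74, which present antigen in B, dendritic and myeloid cells, were among the largest falls. H2-Aa lay at 9.44, 10.45 and 8.83 in media control and at 8.33, 7.99 and 6.90 with IL-7, with media control replicate 2 again the highest. Cd74 fell from 9.56, 10.16 and 9.72 to 8.34, 7.93 and 7.81. The groups did not overlap in either gene, as the rule that named them required. The differences were -1.84 for H2-Aa (SE 0.28, adjusted p = 0.00109) and -1.79 for Cd74 (SE 0.25, adjusted p = 0.000716). Slc6a19, an amino acid transporter, differed by -1.80 (SE 0.27, adjusted p = 0.00103), and Sntb1, a syntrophin, by -1.70 (SE 0.31, adjusted p = 0.00256).

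Genes that guide T cells into, within and out of lymph nodes and tissues had the lowest median of all lists, -0.89, with 9 of 12 lower and none higher. Itgae, the integrin chain CD103 that holds T cells in epithelia, lay at 9.66, 11.33 and 9.89 in media control and at 6.94, 7.62 and 6.75 with IL-7. S1pr1, the receptor for egress, fell from 9.45, 10.48 and 9.48 to 7.77, 8.64 and 7.82. Control replicate 2 was the highest array in both, and the IL-7 arrays lay below all controls, by -3.19 for Itgae (SE 0.53, adjusted p = 0.0018) and -1.73 for S1pr1 (SE 0.36, adjusted p = 0.00547). Itga4, an integrin chain for entry into inflamed tissue, differed by -1.14 (SE 0.19), Klf2, a factor that drives S1pr1, by -0.88, and Ccr7, the lymph node chemokine receptor, by -0.60. Ccr9 (-1.25) and Klf3 (-0.91) did not pass, nor did Cxcr4 (0.30). Without media control replicate 2 the median was -0.88 and 6 members were lower, and without IL-7 replicate 1 or 2 that count was again 6. Without replicate 1 of every group limma called 0 lower (10 at an unadjusted p under 0.05), without replicate 2 it called 4 and without the block 2.

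Genes of naive and memory quiescence were lower in 8 of 17 cases and higher in none, with a median of -0.55. Mxd4, which opposes MYC, lay at 10.63, 11.51 and 11.06 in media control and at 8.50, 8.92 and 8.93 with IL-7, apart by -2.28 (SE 0.27, adjusted p = 0.000395). Btg2, an antiproliferative factor, differed by -1.09 (SE 0.17, adjusted p = 0.00139), Lef1, a factor of naive cells, by -0.95 (SE 0.17) and Dapl1 by -0.90 (SE 0.18). Foxp1 (-0.15), Klf4 (-0.03) and Ets1 (-0.29) did not pass. The count was 5 without media control replicate 2, with a median of -0.56, and 4 without IL-7 replicate 2, and it was 2 without replicate 1 of every group, 4 without replicate 2 and 1 without the block. All 8 GIMAP genes measured, GTPases of lymphocyte survival, were described as a list, with 5 lower, none higher and a median of -0.56. The 4 named by rule were Gimap3, Gimap5, Gimap6 and Gimap8, at -0.57, -0.58, -0.61 and -0.60. Without media control replicate 3 or IL-7 replicate 2 the call for Gimap3 was lost (adjusted p = 0.053 and 0.0691), as was that for Gimap5 without media control replicate 2, IL-7 replicate 1 or IL-7 replicate 2 (0.059, 0.0541 and 0.0588), and 2 GIMAP members passed without IL-7 replicate 2. Without replicate 1 of every group, replicate 2 or the block, limma called 0 GIMAP members (6, 5 and 4 lower at an unadjusted p under 0.05), and as deposited 0.

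Transcription factors of effector and memory cells split, with 7 of 23 higher and 4 lower. Nfil3, a leucine zipper factor, rose from 7.27, 7.79 and 7.49 to 9.32, 10.20 and 8.71, by 1.89 (SE 0.23, adjusted p = 0.000408). A partner of JUN proteins, Batf3, differed by 1.71 (SE 0.23, adjusted p = 0.000702) and Prdm1 (BLIMP-1), a driver of effector differentiation, by 1.44 between means that were both under background. Ikzf2, which encodes Helios, lay at 10.59, 11.23 and 10.64 in media control and at 8.59, 9.09 and 8.74 with IL-7. Bcl6, which opposes Prdm1 in lymphocytes, fell from 7.30, 7.80 and 7.02 to 5.34, 6.04 and 5.75. Groups were apart in both, by -2.01 for Ikzf2 (SE 0.30, adjusted p = 0.00103) and -1.66 for Bcl6 (SE 0.29, adjusted p = 0.00215), the latter to under background. The 4 lower members were 2 without IL-7 replicate 2. Without replicate 1 of every group, replicate 2 or the block, 3, 4 and 4 members were higher and 0, 1 and 2 lower. Tbx21 (0.32) and Eomes (-0.04), the T-box factors of killer cells, did not pass.

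Effector molecules moved singly. Gzmb, the protease granzyme B, lay at 12.78, 12.32 and 12.19 in media control and at 14.48, 14.30 and 14.32 with IL-7, a difference of 1.94 (SE 0.18, 3.83-fold, adjusted p = 9e-05) with no overlap. Of 17 cytotoxic genes 3 were higher and 2 were lower (17.6% and 11.8%, beside 8.34% and 8.01% over all genes). Fasl, the death ligand, differed by 0.85 (SE 0.21, adjusted p = 0.0132) and Gzmc by 0.78 (SE 0.20, adjusted p = 0.0165, under background), and both calls were lost without media control replicate 2 (0.0658 and 0.0708) and without IL-7 replicate 2 (0.06 and 0.0773), where Gzmb alone of the 3 passed. The call for Fasl was also lost without IL-7 replicate 1 (0.0528) and that for Gzmc without media control replicate 3 (0.0746). Ctsw, cathepsin W of cytotoxic lymphocytes, differed by -0.67 (SE 0.12, adjusted p = 0.00272), and Prf1 (0.10) and Gzma (-0.50) did not pass.

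Of 27 secreted cytokines and chemokines 4 were higher and 3 were lower (14.8% and 11.1%, beside 8.34% and 8.01% over all genes). Lta, lymphotoxin alpha, lay at 7.71, 7.87 and 8.52 in media control and at 9.48, 9.34 and 10.29 with IL-7, by 1.67 (SE 0.13, adjusted p = 4.3e-05). Lif and Osm, cytokines of the IL-6 family, differed by 1.32 (SE 0.17, from under background) and 1.26 (SE 0.23). Xcl1, a chemokine that draws dendritic cells, fell from 10.74, 10.77 and 10.90 to 9.52, 8.97 and 10.01, by -1.30 (SE 0.28, adjusted p = 0.00665). Each of these 4 genes had groups that did not overlap. The 3 lower members of the list were 1 without any single array but media control replicate 1. Ifng, the cytokine of type 1 responses, lay at 7.01, 6.70 and 6.91 in media control and at 8.01, 6.86 and 7.51 with IL-7, and did not pass (0.58, SE 0.35, adjusted p = 0.271).

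Of 15 costimulatory receptors 3 were higher and 3 were lower. Without replicate 1 of every group, replicate 2 or the block, limma called 0, 1 and 2 higher (3, 3 and 4 at an unadjusted p under 0.05). In these fits 0, 1 and 0 were called lower (3, 4 and 2). The TNF receptor family members Tnfrsf4 (OX40), Tnfrsf9 (4-1BB) and Tnfrsf18 (GITR) rose by 1.30 (SE 0.21, adjusted p = 0.00164), 0.93 (SE 0.19, adjusted p = 0.00527) and 0.81 (SE 0.12, adjusted p = 0.00117). Tnfrsf4 lay at 10.22, 9.66 and 10.16 in media control and at 11.50, 11.31 and 11.12 with IL-7, with no overlap. Crtam fell by 0.90 on the log2 scale (SE 0.15), and Cd27 and Cd28, which support T cell activation, were lower at -0.71 and -0.45. Of 13 inhibitory receptors 3 were lower and none was higher, namely Cd96 at -0.89 (SE 0.17), Cd5 at -0.69 (SE 0.14) and Cd160 at -0.66 (SE 0.14), while Pdcd1 (-0.25), Ctla4 (-0.11), Lag3 (-0.34) and Havcr2 (0.38) did not pass. The number of inhibitory receptors lower was 0 without replicate 1 of every group, 0 without replicate 2 and 1 without the block (3, 4 and 3 at an unadjusted p under 0.05 in limma).

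Of 15 chemokine receptors Cxcr5, which leads cells to B cell follicles, and Cxcr3, a receptor of effector cells, were lower (13.3%, beside 8.01% over all genes). Cxcr5 lay at 7.69, 8.37 and 8.11 in media control and at 6.69, 6.38 and 6.00 with IL-7, all under background there, by -1.70 (SE 0.27, adjusted p = 0.00139). Cxcr3 differed by -0.80 (SE 0.23, adjusted p = 0.0301), a call lost without any 1 array but media control replicate 1 (adjusted p from 0.0633 to 0.132). Of 12 killer lectin-like and NK receptors Klrd1 (-1.11, SE 0.28, adjusted p = 0.0163) and Klrk1 (-0.92, SE 0.28, adjusted p = 0.0391) were lower, and without media control replicate 2 neither passed (0.0691 and 0.139). The call for Klrk1 was lost without any one of the 6 arrays (0.059 to 0.139), and that for Klrd1 also without any of the 3 IL-7 arrays (0.0516 to 0.0539).

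Genes of the type I interferon response were lower in 6 of 28 cases and higher in none, with a median of -0.34. Ifi209, an interferon-inducible DNA sensor of the PYHIN family, lay at 11.25, 12.22 and 11.74 in media control and at 9.53, 10.26 and 10.24 with IL-7, apart by -1.73 (SE 0.26, adjusted p = 0.00107). Irf7 and Irf9, factors of the interferon response, differed by -0.91 (SE 0.22, adjusted p = 0.0108) and -0.70 (SE 0.19, adjusted p = 0.0216), and Ifi27l2a by -0.74 (SE 0.18, adjusted p = 0.0135). Without media control replicate 2 the calls for these 3 were lost (0.0577, 0.104 and 0.0655) and 1 member passed, and so it was without IL-7 replicate 2 (0.0504, 0.0919 and 0.0607). The call for Irf9 was also lost without IL-7 replicate 1 (0.0544) or 3 (0.0528), and 3 members passed without IL-7 replicate 1. The well known targets Ifit1 (0.07), Ifit3 (0.04) and Mx1 (0.12) did not pass. Ifi213, a relative of Ifi209 outside the list, lay at 7.50, 9.31 and 7.57 in media control and at 5.67, 6.45 and 5.78 with IL-7. It differed by -2.16 (SE 0.52, adjusted p = 0.0117), and the call was lost without media control replicate 2 (0.0631) or IL-7 replicate 2 (0.0556).

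Of 17 genes of the T cell receptor and its coreceptors 7 were lower and none was higher, with a median of -0.23. Cd6 and Cd5, which dampen receptor signals, differed by -0.81 (SE 0.13, adjusted p = 0.00161) and -0.69 (SE 0.14, adjusted p = 0.0041). Cd8b1, the CD8 beta chain, differed by -0.55 (SE 0.12, adjusted p = 0.00843) and Fyn, a receptor kinase, by -0.53 (SE 0.11, adjusted p = 0.00525). The number lower was 4 without media control replicate 3 or IL-7 replicate 1 or 2. Without replicate 1 of every group, replicate 2 or the block, limma called 0, 1 and 2 lower (7, 7 and 7 at an unadjusted p under 0.05), and as deposited 0. Cd8a, the CD8 alpha chain, lay at 11.39, 11.96 and 11.95 in media control and at 11.26, 11.90 and 11.82 with IL-7 and did not pass (-0.11, adjusted p = 0.487). On the values as deposited, where the median over all genes was 0.41, the medians of the homing, quiescence and GIMAP lists stayed below 0. Those of the interferon, T cell receptor, costimulatory, inhibitory and chemokine receptor lists (0.18, 0.14, 0.26, 0.36 and 0.14) and of the JAK/STAT and PI3K lists (0.30 and 0.35) were above 0 but below that of all genes.

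**Figure D4:**
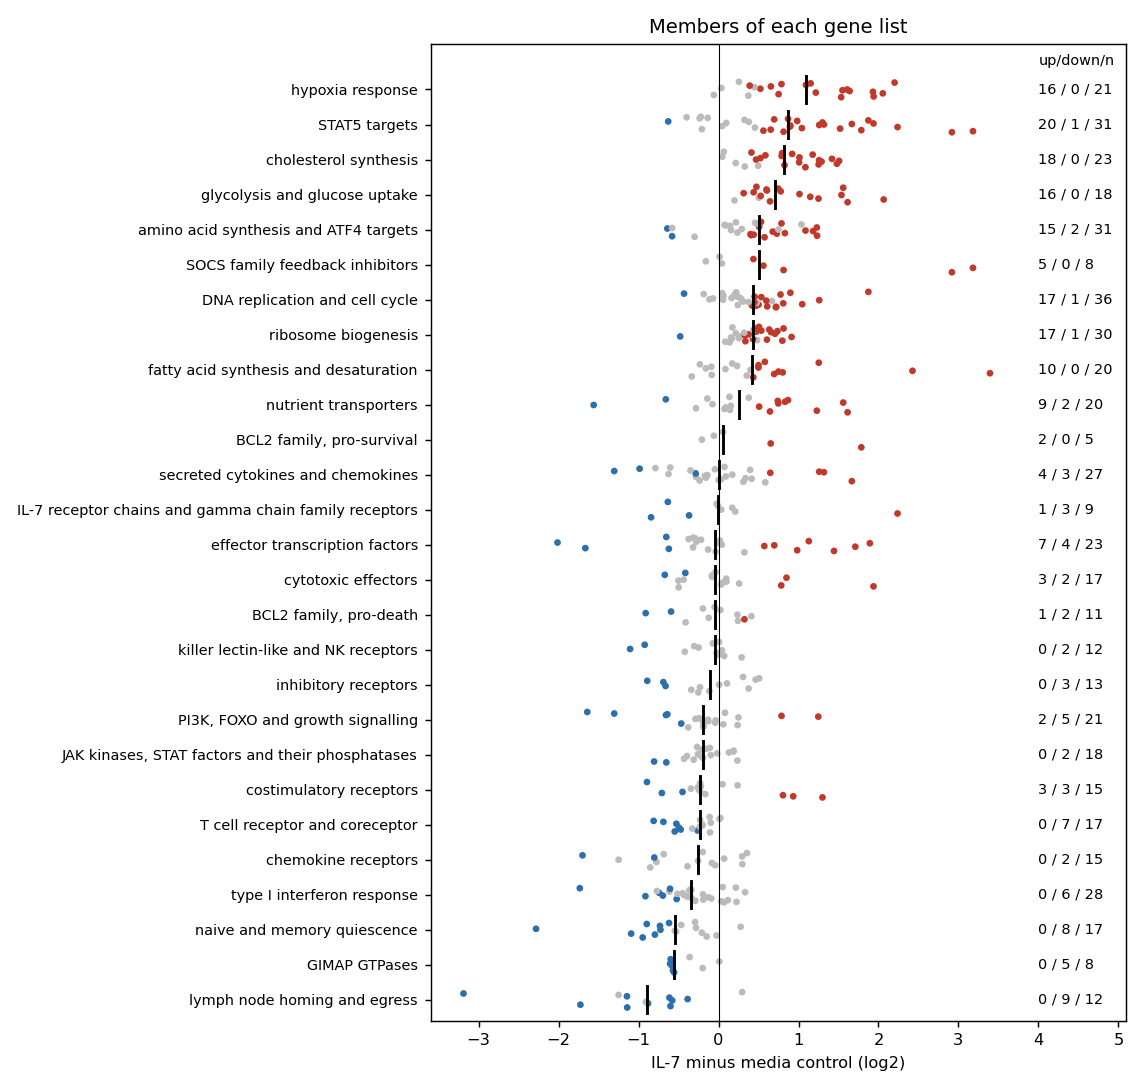
Difference between IL-7 and media control (horizontal axis, log2) for the members of 27 gene lists, ordered by their median (black bar), with members higher in red, lower in blue and not passing in grey. The numbers on the right give members higher, lower and measured, from 16, 0 and 21 for hypoxia response at the top to 0, 9 and 12 for lymph node homing and egress at the bottom.

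IL-2 and IL-15 act through receptors that share the gamma chain with IL-7 and also signal through STAT5, so IL-7 was set beside them at the same dose and time. These comparisons use the same 3 IL-7 arrays as the one with media control. Against IL-2, 1078 genes were higher with IL-7 (5.92%) and 951 were lower (5.22%). Of the 31 STAT5 targets 3 were higher and 11 were lower with IL-7 than with IL-2, with a median of -0.42. Cish (-0.39, SE 0.27, adjusted p = 0.399) and Bcl2 (0.06, SE 0.25, adjusted p = 0.897) did not pass, whereas Lta was lower with IL-7 by -2.02 (SE 0.13, adjusted p = 3.3e-06) and Il2ra by -0.90 (SE 0.19, adjusted p = 0.00687). Of the 31 amino acid and ATF4 genes 22 were lower with IL-7 (median -0.84), and of the 30 ribosome biogenesis genes 21 (median -0.51). Of the 23 cholesterol genes 1 passed, of the 18 glycolysis genes 2 and of the 21 hypoxia genes 2, with medians of -0.19, -0.02 and -0.16.

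Among called genes whose arrays did not overlap, the 4 most below IL-2 were Il24, under background with IL-7 (-3.54, SE 0.47), Emilin2, a matrix glycoprotein (-2.88, SE 0.41), Ifng (-2.51, SE 0.35) and Cth, also under background with IL-7 (-2.34, SE 0.34). The 4 most above it were Kcna2, a potassium channel (3.14, SE 0.30), Ifi209 (3.03, SE 0.26), Ifit1bl1 (2.88, SE 0.54) and Xcl1 (2.65, SE 0.28). Ifng lay at 8.01, 6.86 and 7.51 with IL-7 and at 10.46, 8.83 and 10.63 with IL-2, with no overlap. Bcl2l11 lay at 10.40, 10.99 and 10.85 with IL-7 and at 8.09, 8.84 and 8.47 with IL-2. The IL-7 arrays lay above all IL-2 arrays, by 2.28 (SE 0.16, adjusted p = 3.7e-06). Of the lists that were lower than in media control, those of homing and quiescence lay above IL-2, with 8 of 12 and 11 of 17 members higher and none lower. So did those of T cell receptor, GIMAP and inhibitory receptor genes, with 9 of 17, 5 of 8 and 5 of 13 higher and none lower. Of 28 interferon genes 11 were higher and 1 was lower, of 18 JAK and STAT genes 5 and 1, and of 15 chemokine receptors 2 and 1.

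Against IL-15, 48 genes were higher with IL-7 (0.263%) and 13 were lower (0.0714%). Of the 31 STAT5 targets 10 were higher and none was lower, with a median of 0.63. Cish lay at 11.22, 11.10 and 10.72 with IL-7 and at 9.28, 8.33 and 8.22 with IL-15, a difference of 2.41 (SE 0.27, adjusted p = 0.00131). Lta differed by 1.73 (SE 0.13, adjusted p = 5.3e-05), Il2ra by 1.76 (SE 0.19), Gpld1 by 2.31 (SE 0.33) and Gm17767 by 2.08 (SE 0.25). Among called genes above background whose arrays did not overlap, the 4 most below IL-15 were Ms4a4c (-0.92, SE 0.18), Trim12a (-0.90, SE 0.15), Klhl24 (-0.85, SE 0.12) and Rab19 (-0.84, SE 0.14). Ifi213 (-1.75, adjusted p = 0.144) and Ifi209 (-1.10, adjusted p = 0.0812) lay further below IL-15, with no overlap, and did not pass. No gene of the cholesterol, glycolysis or hypoxia lists passed in this comparison, where their medians were 0.45, 0.32 and 0.37. The counts against IL-15 rested on few arrays, and without replicate 1 none passed in limma (1586 at an unadjusted p under 0.05), while without replicate 3 there were 807 higher and 753 lower.

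**Figure D5:**
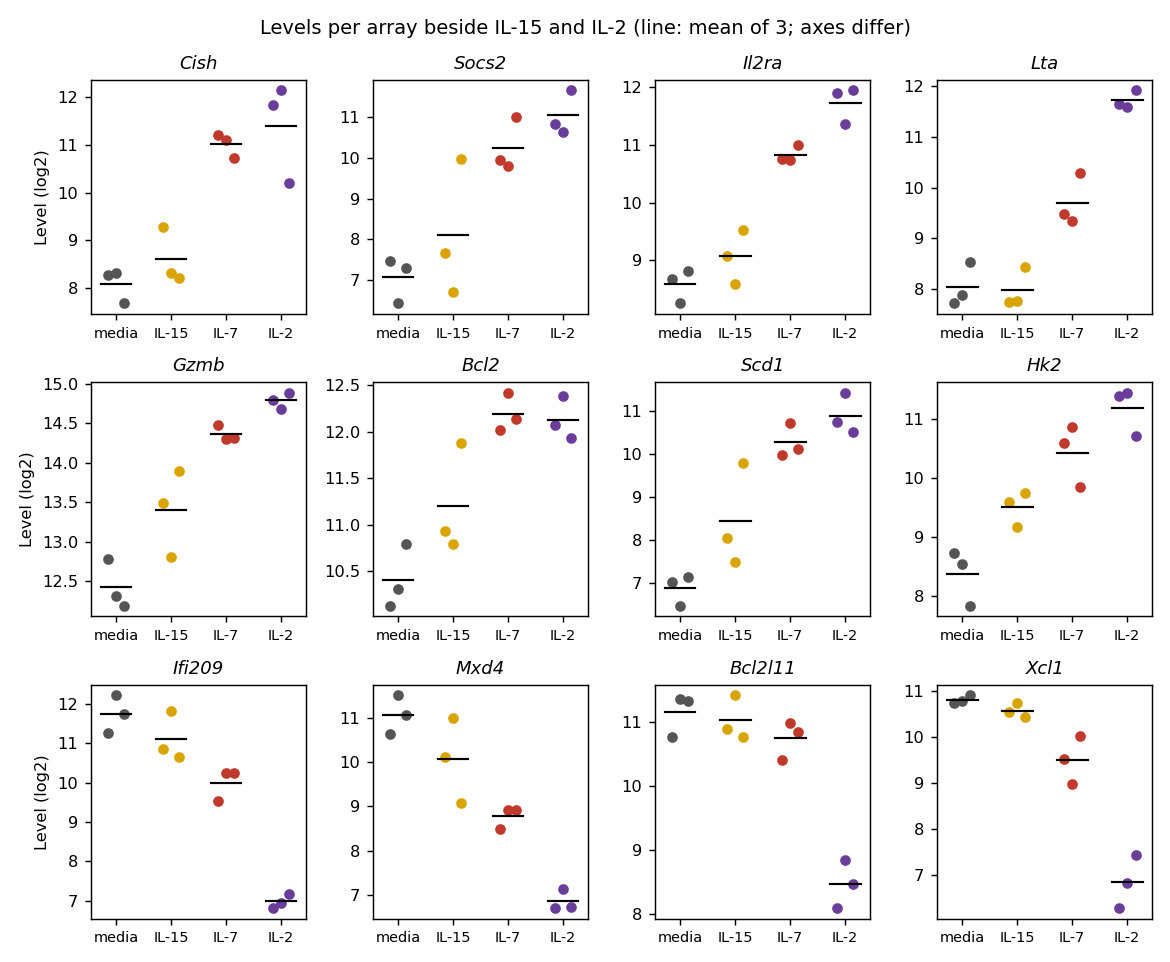
Level (vertical axis, log2, range set per gene) of 12 genes in each array of media control, IL-15, IL-7 and IL-2, with a line at the mean of 3. The IL-7 arrays of Cish, Il2ra and Lta lie above all IL-15 arrays, those of Bcl2 overlap with IL-2, and those of Bcl2l11, Ifi209, Mxd4 and Xcl1 lie above all IL-2 arrays.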

How the data were processed

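RNA of 18 cultures, 3 biological replicates in each of 6 groups, was hybridised to Affymetrix mouse arrays. The authors summarised the scans with RMA in Affymetrix Expression Console 1.1 and deposited log2 values for 45101 probe sets. Groups were taken from the sample labels. The 18 columns were quantile normalized again, since 3 lay lower as deposited. Of the probe sets, 34958 carried 1 gene symbol, 932 several and 9211 were not listed; the probe set with the highest mean stood for each of 18219 genes. limma 3.58.1 in R 4.3.3 fitted a mean per group with the replicate number as a block (lmFit and eBayes, 10 residual degrees of freedom), with 2-sided tests and Benjamini-Hochberg adjustment over all genes within each comparison. Same-numbered arrays deviated together in all 45 pairs (lowest correlation 0.442, highest between different numbers 0.384). The labels call the arrays biological replicates. Quantile normalization sets the overall level of every array equal, so a shift of all transcripts could not be seen.

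The members and gene lists were chosen with earlier results of these data known. Named genes were the 12 largest called rises and falls whose groups did not overlap and whose higher mean was above background, up to 4 called members of each list by size of change (or, where none passed, that with the lowest p), a set list of receptor, JAK, STAT5, SOCS and BCL2 genes, and the 4 largest differences each way against IL-2 and IL-15. Other list members named were chosen after their values were seen. The fit was tested on simulated data with known changes. Alternatives were the normalization, the block, the arrays and groups fitted, the choice of probe set, a filter on low levels and a mean-variance trend. Promoter sequences are those of RefSeq (GRCm38.p6). Symbols without a named probe set are not analysed here. Some members of the lists are counted there but not reported here by name.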

Additional observations from a re-analysis of the deposited data

How the results depend on the processing

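Without the replicate block, 171 genes were higher and 136 lower with IL-7 than in media control, 163 and 96 against IL-2, and 2 and 0 against IL-15 (811 at an unadjusted p under 0.05 in limma). On the values as deposited the counts were 165 and 2 against media control, 157 and 14 against IL-2, and 14 and 0 against IL-15. With only the 2 groups compared in the fit they were 439 and 428, 537 and 378, with no call either way against IL-15 (0 higher, 0 lower, while 1932 genes had an unadjusted p under 0.05 in limma). Against IL-15, median centring gave 8 lower, the mean of all probe sets 28 higher and 5 lower, only genes above background 246 and 135, and a mean-variance trend 131 and 56. With each replicate number left out in turn, genes higher ran from 142 to 1672 and lower from 84 to 1647 against media control, from 98 to 1413 and from 70 to 1245 against IL-2, and from 0 to 807 and from 0 to 753 against IL-15, lowest without replicate 1 and highest without replicate 3. The cause of these shifts was not tested; fits with 2 groups or without a replicate number hold fewer samples. Among called named genes, direction reversed for Il2rg as deposited, at 0.022, and for Ccnd3 with the mean of all probe sets, at -0.024, whose probe sets differ in sign. Of named genes that did not pass, Bcl2l11, Ifit1bl1, Mcl1, Stat5a and Stat5b turned positive as deposited (0.09, 0.304, 0.223, 0.417 and 0.272), and Stat5a with the mean of all probe sets (0.004). Of 130 results for named genes, 64 no longer passed without the block, 65 as deposited, 77 without replicate 1, 54 without replicate 2, 5 without replicate 3, and 24 with only the 2 groups. The 3 arrays per group and levels near background limit what could be called.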
